A study of Mus musculus with 4 samples.

Results

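Ribosomal proteins form, together with ribosomal RNA, the small (40S) and the large (60S) subunit of the cytosolic ribosome, the machine that translates mRNA into protein. Their mRNAs are among the most abundant of growing cells, and most begin with a 5′ terminal oligopyrimidine (TOP) tract, a C followed by further C and U bases, through which the kinase mTOR and the RNA-binding protein Larp1 control their translation. In T cells, activation is accompanied by growth in cell size and by synthesis of new ribosomes.

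The cytosolic ribosomal protein genes were taken by symbol from the gene count tables, as symbols made of Rpl or Rps, a number and an optional a, x or l, plus Rpsa, Rplp0, Rplp1 and Rplp2. This gave 83 of 55367 gene rows, 32 of the small subunit and 51 of the large subunit. Of these, 82 had any count and 77 passed the filter on low counts. All 83 matched GENCODE M21, which lists 80 as protein coding and 3, Rpl6l, Rpl32l and Rps4l, as processed pseudogenes, so that the symbol rule also takes in 3 rows that the annotation does not regard as ribosomal protein genes.

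RNA-seq counts were given for 4 libraries of polyadenylated mouse RNA, 2 labeled WT and 2 labeled KO, each from dissociated tumors of the melanoma line B16-F10, with a sort for CD45.2+CD8+ cells according to the extraction protocol. The design text names WT mice and Satb1 F/F mice carrying either ThPOK-cre or E8I-cre, in which floxed Satb1, a chromatin organizer of T cells, is deleted in the CD4 lineage or in CD8 T cells. The labels of these libraries do not say which Cre stands behind KO, nor give the age and sex of the animals, for which the study's methods state only a general range of weeks and mixed sexes. Tumor-bearing knockouts are described in the study's text with Thpok-cre. Whether the libraries came from separate animals was not given in the labels, so p-values measure only the spread between these libraries. Gene counts ranged from 4017875 to 5382915 per library.

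Before the results, 2 checks of the labels are given. Satb1 had 7 and 5 counts in WT 1 and WT 2, compared with 131 and 55 in KO 1 and KO 2. In a mix of cells such counts also depend on the T cell content, and T cell genes were higher in KO too, as given next. The counts of Satb1 therefore do not show whether it was deleted, and KO is used below as a label only. The 10 T cell identity genes, which include Cd3e, Cd8a and Trac, held 0.00672% and 0.0106% of gene counts in WT and 0.244% and 0.123% in KO, with none of the 10 at 0 in any library. The 13 macrophage or monocyte genes, which include Lyz2, Csf1r and C1qa, held 2.98% and 4.09% in WT and 2.36% and 3.08% in KO, more than the T cell genes in all 4 libraries. The 8 melanoma genes held 0.0219% and 0.0256% in WT and 0.232% and 0.126% in KO. The 6 fibroblast or endothelium genes held 0.00207% and 0.00192% in WT and 0.136% and 0.0199% in KO. The latter difference lay mainly in collagen genes, as in Col3a1, with 7 and 1 counts in WT and 3836 and 457 in KO. Of the endothelial genes, Pecam1 had 51 and 63 counts in WT and 70 and 124 in KO, and Cdh5 had 1 and 6 in WT and 1 and 1 in KO. The part of these differences in cell make-up in the results below was not tested, and in such bulk samples fewer cells of a type and less RNA per cell cannot be told apart.

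To show the feature by which this gene family is best known, the sequence around the transcription start was read from RefSeq (GRCm38.p6) for the members that its promoter table holds, 61 of 83. Windows of 30 bases, 15 before the start and 15 from the start on, were searched on the strand of the gene for a C followed by at least 5 C or T bases. Such a run was found for 36 of 61 members (59.0%) and for 25.5% of all 27025 genes of the table. On the opposite strand, 6.85% of the members' 73 windows and 25.5% of all windows held one. The windows of 7 members described below are shown 5′ to 3′, with the longest run in capitals where there is one. They were picked as examples with a run at or near the start (Rpl28, Rplp2 and Rps27), with a run farther upstream (Rpl4 and Rpl13) and with none (Rpl5 and Rplp0).
Rpl28, chr7:4792950-4792979, plus strand: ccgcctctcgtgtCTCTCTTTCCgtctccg
Rplp2, chr7:141447636-141447665, plus strand: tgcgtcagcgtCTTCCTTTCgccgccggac
Rps27, chr3:90213634-90213663, minus strand: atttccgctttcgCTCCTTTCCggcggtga
Rpl4, chr9:64173372-64173401, plus strand: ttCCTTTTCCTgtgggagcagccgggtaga
Rpl13, chr8:123102335-123102364, plus strand: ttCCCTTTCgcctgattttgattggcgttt
Rpl5, chr5:107900513-107900542, plus strand: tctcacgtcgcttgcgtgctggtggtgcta
Rplp0, chr5:115559452-115559481, plus strand: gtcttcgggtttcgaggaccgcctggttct

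In Rpl28 and Rps27 the longest run began 2 bases before the RefSeq start and in Rplp2 4 bases before it, whereas in Rpl4 and Rpl13 it began 13 bases before it. The window of Rpl28 also holds a shorter run farther upstream, left in lower case. The absence of a run in a window says only that these letters were not found around the RefSeq start. The search took runs anywhere in the window, also those before the start, so its shares are not counts of TOP tracts. The members tested with a run (33) and without one (22) had median log2 fold changes, KO over WT, of -0.05 and -0.06.

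The ribosomal protein genes together took a larger share of gene counts in one KO library and a smaller share in the other than in either WT library. The share of WT 1 was 3.54% (exact Clopper-Pearson 95% interval 3.52% to 3.56%), 3.63% in WT 2 (3.61% to 3.65%), 6.11% in KO 1 (6.09% to 6.14%) and 2.53% in KO 2 (2.52% to 2.55%). These intervals cover counting error only. The WT libraries thus lay close to each other, at 3.58% ± 0.0621 (SD, n = 2), and the KO libraries lay on both sides of them, at 4.32% ± 2.53 (SD, n = 2). The difference between the group means, 0.740 percentage points, was smaller than the SD between the KO libraries, and the groups overlapped. With 2 against 2 libraries an exact permutation test cannot give a p-value below 0.333. The KO libraries also stood apart in measures of the whole library. In KO 2, 30.3% of reads did not align and 29.5% had no feature, compared with 41.2% to 44.2% and 22.3% to 24.4% in the other libraries. KO 1 had 18655 genes with a count, compared with 15684 to 16656 in the others. The part of these differences in the share was not tested.

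**Figure D1:**
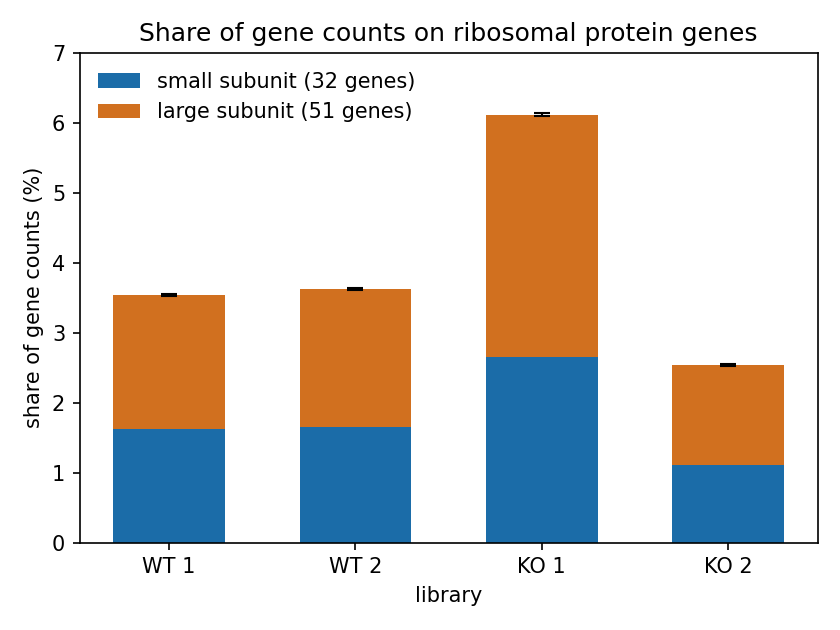
Share of gene counts (%) on ribosomal protein genes in each library, stacked by subunit, with exact 95% intervals of the total as error bars that cover counting error only. KO 1, at 6.11%, stands above and KO 2, at 2.53%, below the WT libraries at 3.54% and 3.63%.

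Both subunits followed this order of libraries. The small subunit took 1.63% and 1.65% of gene counts in WT 1 and WT 2, 2.66% in KO 1 and 1.12% in KO 2. The large subunit took 1.91% and 1.98% in WT, 3.46% in KO 1 and 1.42% in KO 2. Compared with the mean of WT, the share of all members was 1.71-fold in KO 1 and 0.707-fold in KO 2.

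Some other gene groups had the same order. The 37 mitochondrially encoded genes took 0.437% and 0.522% in WT, 1.05% in KO 1 and 0.297% in KO 2, and the 9 snoRNA host genes 0.00679% and 0.00831% in WT, 0.0331% in KO 1 and 0.00574% in KO 2. KO 1 also had the largest share of the T cell, melanoma, fibroblast or endothelium and cell cycle lists, the third mainly through its collagen genes. The cell cycle list stood at 0.108% in KO 1 against 0.0781% in KO 2 and 0.0188% and 0.0363% in WT. In KO 2, however, these 4 lists lay above both WT libraries while the ribosomal protein genes lay below them. KO 1 had the smallest share of the macrophage or monocyte list as a sum, but the genes of this list differed. Lyz2 had 29370 and 57521 counts in WT and 67802 and 58896 in KO, with most in KO 1. C1qa had 12456 and 18404 in WT and 3222 and 10641 in KO, with fewest in KO 1. The part of any of these lists in the share of the ribosomal protein genes was not tested.

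Gene by gene, each of the 77 members tested had a higher level in KO 1 than in KO 2. Levels are given as normalized CPM, counts scaled to a common library size, corrected by TMM (trimmed mean of M-values). The ratio of KO 1 to KO 2 ranged from 1.34-fold in Rpl3 to 4.67-fold in Rpl23, with a median of 2.33-fold, and was above 2-fold in 58 of 77 members. Among all 11837 genes tested, KO 1 was above KO 2 in 51.6%, with a median log2 ratio of 0.04, and among the 1757 genes with a mean of at least 100 normalized CPM it was above in 40.5%. The ratio of WT 1 to WT 2 stayed within a log2 range of -0.53 to 0.75 in the members, with a median of 0.13. The replicates labeled KO thus differed over the whole gene family, and those labeled WT much less.

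KO 1 was the highest library in 51 of 77 members (66.2%) and WT 1 in the other 26 (33.8%), compared with 34.1% and 27.6% of all genes tested and 20.7% and 43.0% of those with at least 100 normalized CPM. KO 2 was the lowest in 75 of 77 members (97.4%), compared with 24.1% of all genes tested and 28.6% of those with at least 100 normalized CPM. The exceptions were Rpl3 and Rpl4, both core proteins of the large subunit, whose level in KO 2 was a log2 of 0.05 and 0.06 above the mean of WT. In 49 of 77 members (63.6%) KO 1 lay above and KO 2 below both WT libraries, compared with 9.84% of all genes tested. Scaling by library totals alone gave 69 of 77 members (89.6%) and 10.7% of all genes, with KO 1 highest in 74 members, KO 2 lowest in 72 and KO 1 above KO 2 in all 77.

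**Figure D2:**
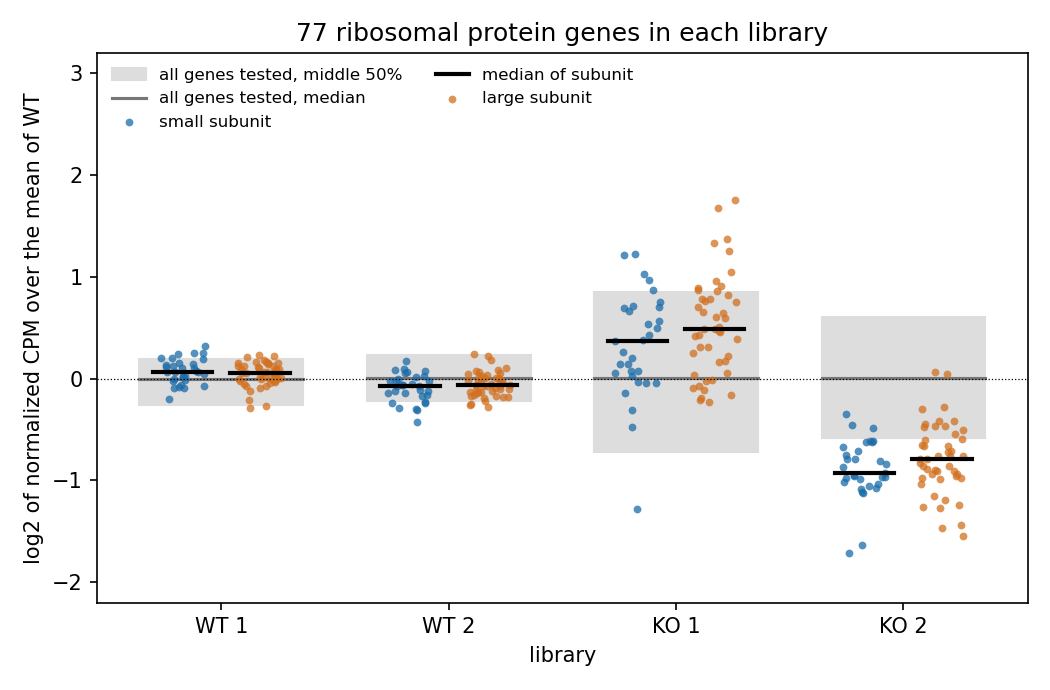
Log2 of the normalized CPM of the 77 members tested over their mean in WT, by library, with 1 point per gene and a black bar at the median of each subunit. The grey boxes and lines give the middle 50% and the median of all 11837 genes tested. The points of KO 1 lie mostly above 0 and those of KO 2 below 0 except in Rpl3 and Rpl4.

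No member passed the test between KO and WT (edgeR quasi-likelihood test, Benjamini-Hochberg adjusted p under 0.05), and over all genes tested 68 of 11837 passed (0.574%), 65 higher and 3 lower in KO. At an unadjusted p under 0.05 there was 1 of 77 members, Rps4l, compared with 13.7% of all genes. DESeq2 also called none of the members, with 1 at an unadjusted p under 0.05. The log2 fold changes of the members, KO over WT, ranged from -1.48 to 1.09 with a median of -0.05, and 34 of 77 were above 0, or 60 of 77 with library totals alone as the scaling. The median over all genes tested was 0.05, or 0.38 with library totals alone, where that of the members was 0.32. Among genes with at least 100 normalized CPM, the median was -0.32 and 31.3% were above 0, compared with 44.2% of the members and 52.6% of all genes, so that the members lay below all genes but above genes of such levels. These values do not show that the members were equal in both groups, since the 95% interval of a member's log2 fold change reached a median of 1.202 to either side.

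The KO libraries moved this median in opposite directions. Without KO 1, the members' median log2 fold change was -0.84, 2 of 77 were above 0 and 38 (49.4%) had an unadjusted p under 0.05, compared with 16.3% of all genes tested and 26.0% of those with at least 100 normalized CPM. No member passed the adjusted threshold in that fit, in which 0.862% of all genes did. Without KO 2, the median was 0.46, 61 of 77 were above 0 and 20 (26.0%) had an unadjusted p under 0.05, compared with 27.5% of all genes and 42.6% of those with at least 100 normalized CPM. In that fit 3 members (3.90%), Rpl4, Rpl5 and Rpl17, passed the adjusted threshold, compared with 6.91% of all genes and 13.3% of those with at least 100 normalized CPM. In both fits the lone KO library is assumed to vary like the WT libraries, and both compare 1 KO library with the same WT libraries.

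**Figure D3:**
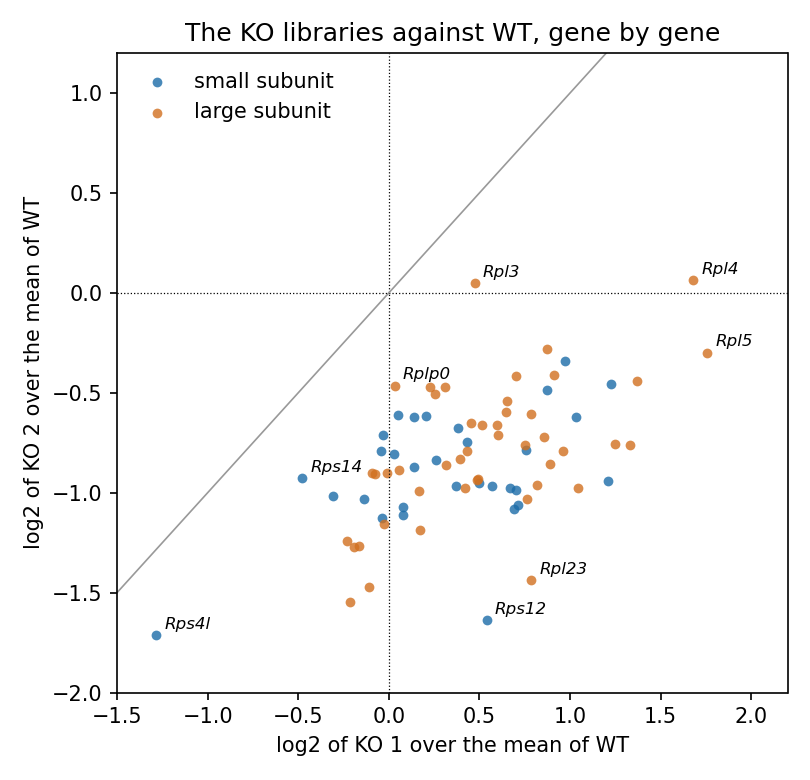
Log2 ratio of each KO library to the mean of WT for the 77 members tested, KO 1 on the horizontal and KO 2 on the vertical axis, colored by subunit, with the grey line marking equal ratios. All points lie below the grey line, since KO 1 was above KO 2 in every member tested.

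Rpl4 and Rpl5 had the largest fold changes above 0. Rpl4 encodes a protein that lines the exit tunnel of the large subunit, and Rpl5 a protein that binds 5S ribosomal RNA and takes part in the control of p53 through Mdm2. Rpl4 (chr9:64173375-64178666) had 376 and 545 normalized CPM in WT and 1474 and 481 in KO. KO 1 was thus well above the other libraries, whereas KO 2 lay within the range of WT. The log2 fold change was 1.09 ± 0.61 (SE, n = 2 per group; edgeR adjusted p = 0.460). Rpl5 (chr5:107900502-107909005) had 241 and 340 normalized CPM in WT and 981 and 236 in KO, and KO 2 was the lowest library. Its log2 fold change was 1.07 ± 0.66 (SE, n = 2 per group; edgeR adjusted p = 0.499). On the opposite strand, exons of Fam69a cover 46.6% of the exonic bases of Rpl5, and the strand setting of the counting was not stated.

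Next among the fold changes above 0 were Rpl17, Rpl21 and Rps7, proteins of the large subunit in the case of the first pair and of the small subunit in the case of Rps7. Rpl17 had 179 and 185 normalized CPM in WT and 470 and 134 in KO, with a log2 fold change of 0.73 ± 0.59 (SE, n = 2 per group; edgeR adjusted p = 0.608). Rpl21 had 104 and 136 in WT and 301 and 70.7 in KO, and Rps7 had 348 and 360 in WT and 827 and 258 in KO. Their log2 fold changes were 0.63 and 0.62. In each of these genes KO 1 was the highest and KO 2 the lowest library.

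At the lower end stood Rps4l, on chr6:148354656-148355598, a processed pseudogene in the annotation despite its symbol. It had 33.5 and 19.96 normalized CPM in WT and 10.98 and 8.16 in KO, so that both KO libraries lay below both WT libraries. The log2 fold change was -1.48 ± 0.54 (SE, n = 2 per group; edgeR adjusted p = 0.287, unadjusted p = 0.023 in the model fitted across all genes). Its parent by symbol, Rps4x, an X-linked gene of the small subunit, had 647 and 712 normalized CPM in WT and 1107 and 343 in KO, with a log2 fold change of 0.09 ± 0.60 (SE, n = 2 per group; edgeR adjusted p = 0.965). Here KO 1 was the highest and KO 2 the lowest library.

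Both KO libraries lay below both WT libraries in 8 of 77 members (10.4%), compared with 22.6% of all genes tested and 38.7% of those with at least 100 normalized CPM. They lay above them in 0 of 77, compared with 25.3% and 10.8%. The 8 were Rps4l, Rpl19, Rpl28, Rplp1, Rplp2, Rps14, Rps15 and Rps28, of which Rps15 was named after its values were seen. With library totals alone, 1 member, Rps4l, lay below in both KO libraries and 1, Rpl3, above, compared with 12.6% and 35.9% of all genes, so that of the 8 only Rps4l was set apart under both scalings. In Rps14 and Rps28 of the small subunit the values were 2029 and 1381 in WT against 1225 and 898 in KO, and 235 and 161 against 160 and 97.9, all in normalized CPM. Rps28 thus differed by less between the highest KO and the lowest WT library than between the WT libraries. Rpl19 had 441 and 333 normalized CPM in WT and 329 and 164 in KO, and Rpl28 had 440 and 357 in WT and 356 and 166 in KO. In both, KO 1 lay within 5 normalized CPM of the lower WT library. The log2 fold changes of these 4 genes were between -0.68 and -0.61, with edgeR adjusted p between 0.579 and 0.622.

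**Figure D4:**
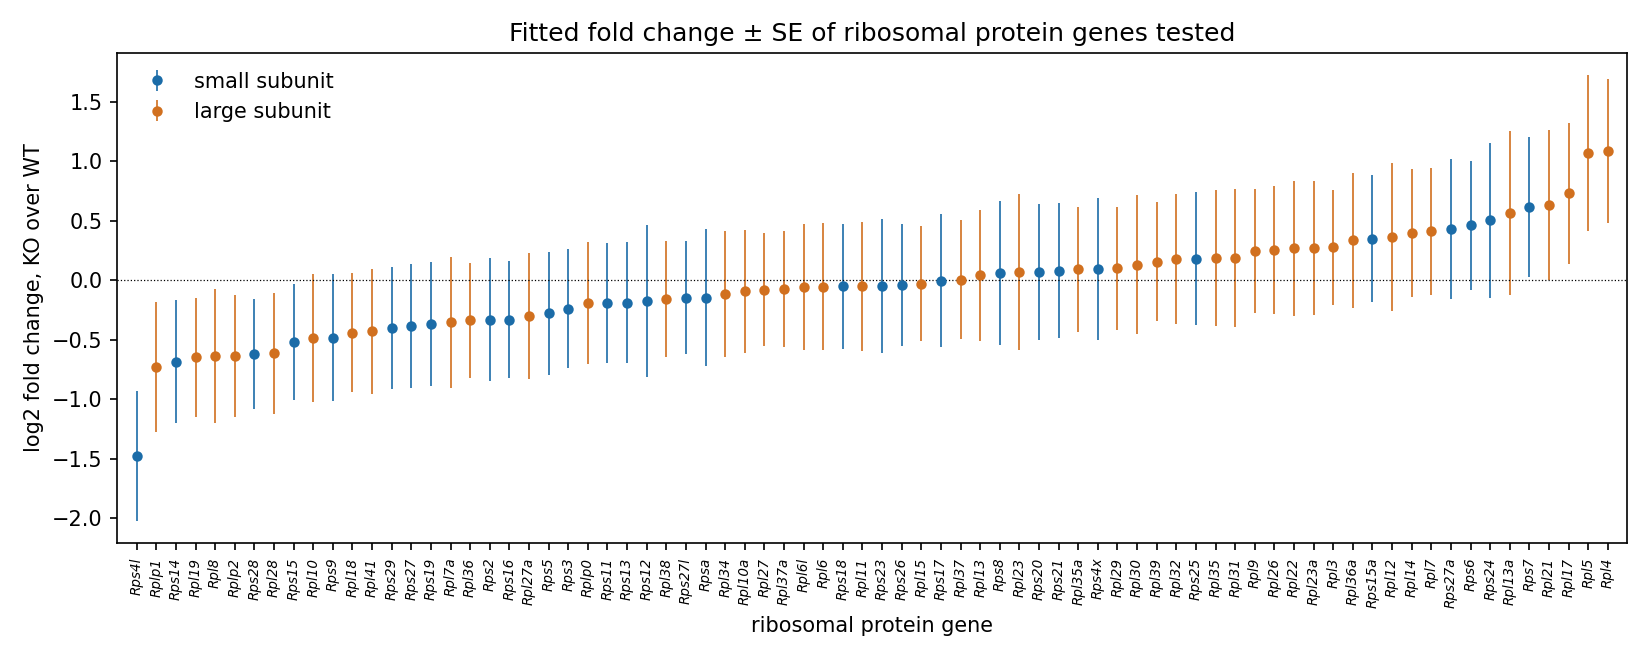
Fitted log2 fold change, KO over WT, of 76 of the 77 members tested in order of size, with the SE as error bars and colored by subunit. Values run from -1.48 in Rps4l to 1.09 in Rpl4, and the SEs of most members reach across 0.

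The stalk of the large subunit, formed by Rplp0 and by dimers of Rplp1 and Rplp2, recruits the GTPases that drive translation. Rplp0 (chr5:115559467-115563727) took more reads than any other member over the 4 libraries together, with 1989 and 1813 normalized CPM in WT and 1943 and 1378 in KO. KO 1 lay within the range of WT. Rplp1 had 682 and 571 in WT and 541 and 214 in KO, and Rplp2 had 527 and 418 in WT and 413 and 196 in KO. In both, KO 1 lay just below the lower WT library and KO 2 far below it. The log2 fold changes were -0.19 ± 0.51 in Rplp0, -0.73 ± 0.55 in Rplp1 and -0.63 ± 0.51 in Rplp2 (SE, n = 2 per group), with edgeR adjusted p of 0.898, 0.580 and 0.608.

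After Rplp0, Rps2, Rps14, Rpsa, Rps19, Rpl13, Rpl41, Rps3 and Rpl10 were among the members with most reads. Rpsa, a small-subunit protein also known as a laminin receptor, had 1456 and 1409 normalized CPM in WT and 1855 and 733 in KO. Rps2, at the entry of the mRNA channel, had 1767 and 1510 in WT and 1600 and 1001 in KO. Rps19, whose human counterpart is mutated in Diamond-Blackfan anemia, had 1506 and 1113 in WT and 1272 and 757 in KO. In the latter pair KO 1 lay between the WT libraries, and in Rpsa above them.

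Rps3, which also takes part in DNA repair, had 1135 and 982 normalized CPM in WT and 1098 and 693 in KO. Rpl41, the smallest ribosomal protein, had 1360 and 982 in WT and 1112 and 625 in KO. In both, KO 1 lay between the WT libraries. Rpl13 had 1166 and 1011 in WT and 1552 and 689 in KO, and Rpl10, a late-joining protein needed to bring the subunits together, 1141 and 1050 in WT and 1075 and 491 in KO. The adjusted p of these genes, Rplp0 included, was between 0.582 and 0.984 (edgeR). Rpl8, among the 5 lowest fold changes at -0.64 on the log2 scale, had 996 and 796 in WT and 829 and 323 in KO.

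The order of levels between genes changes once transcript length is taken into account. Per kilobase of the annotated transcript, Rps14 stood first at 2317 normalized CPM per kilobase in the mean of 4 libraries, followed by Rpl41 at 1875, Rpl32 at 1741, Rps19 at 1502 and Rps18 at 1493. Rplp0 fell to place 9 at 1312. For Rps15a and Rps20 the annotation gave transcripts of 5130 and 3706 bases but coding parts of 390 and 357 bases, so that their places per kilobase, 74 and 72, depend on long untranslated parts. Rpl32, Rps18, Rps15a and Rps20 were named here after their values were seen.

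The largest differences between the KO libraries were in Rpl23, Rps12 and Rps24, named after their values were seen. Rpl23, which with Rpl5 and Rpl11 can bind Mdm2, had 277 and 312 normalized CPM in WT and 508 and 109 in KO. Rps12 had 155 and 116 in WT and 197 and 43.6 in KO. Rps24 had 255 and 287 in WT and 627 and 141 in KO. In each, KO 1 exceeded KO 2 by over 4-fold while the WT libraries lay between them.

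Some members have a close copy under the same rule. Rps27l, a p53 target gene, codes for a protein with 81 of 84 residues identical to that of Rps27, as translated from the GENCODE coding sequences. It had 283 and 208 normalized CPM in WT and 283 and 160 in KO, and Rps27 had 428 and 298 in WT and 383 and 173 in KO. The fold changes were -0.15 ± 0.48 and -0.38 ± 0.52 on the log2 scale (SE, n = 2 per group; edgeR adjusted p = 0.916 and 0.781). Rps4l is described above, and Rpl6l, a processed pseudogene named after its values were seen, had counts of 135 and 162 in WT and 297 and 121 in KO. Rpl3l, Rpl39l and Rpl10l had hardly any counts. Rpl3l, known from heart and skeletal muscle and 76.6% identical to Rpl3, had counts of 2, 1, 1 and 0, with the WT libraries given first. Rpl39l, known from testis and 94.1% identical to Rpl39, received 2, 0, 0 and 4. Rpl10l, known from testis and 98.6% identical to Rpl10, received 0 counts in all 4 libraries.

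Their parents were well covered. Rpl3 had 794 and 876 normalized CPM in WT and 1159 and 863 in KO, with KO 2 between the WT libraries and a log2 fold change of 0.28 ± 0.48 (SE, n = 2 per group; edgeR adjusted p = 0.835). Rpl39, at the exit of the tunnel, had 156 and 163 in WT and 249 and 106 in KO, with 0.15 ± 0.50 (SE, n = 2 per group; edgeR adjusted p = 0.916).

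Not all low counts can be read as low expression. Rpl24 received 0, 0, 0 and 1 counts, Rps10 1, 4, 14 and 9, and Rpl13a 40, 49, 151 and 41, although all 3 code for standard subunits of the ribosome. They were named after their values were seen. In GENCODE M21 their exons overlap those of another gene on the same strand, Gm28037 over 71.5% of the exonic bases of Rpl24, RPS10-NUDT3 over 53.6% of Rps10 and Gm45713 over 59.3% of Rpl13a, and these are the only 3 members with over 50%. Counting that leaves out reads shared between genes removes such reads. Whether that annotation was the one used for counting was not stated. The fold changes of these genes are therefore not read here as levels of their mRNA, and the cause of the low counts was not tested.

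Ribosomal protein genes are also known for many processed copies, and 318 rows carried a member's symbol followed by -ps. They held 0.0990% and 0.0935% of gene counts in WT, 0.192% in KO 1 and 0.0629% in KO 2, with KO 1 highest and KO 2 lowest as in their parents. Of the 62 tested, 0 passed the test in either direction (edgeR), compared with 0.574% of all genes tested, a share at which a count of 0 says little about so few rows. At an unadjusted p under 0.05 there were 0 of 62, compared with 13.7% of all genes. The median log2 fold change was -0.20, and 23 (37.1%) were above 0, compared with 52.6% of all genes. Its direction depended on the library left out, at -0.99 with 2 of 62 above 0 without KO 1 and 0.36 with 51 of 62 without KO 2. Reads of parents and near-identical copies cannot be fully told apart by such counting, and 62 of 83 members have at least 1 such row. The 21 members without one took 0.869% and 0.832% of gene counts in WT, 1.27% in KO 1 and 0.553% in KO 2, and so again most in KO 1 and least in KO 2.

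Of 7 ribosomal protein or ribosome-bound genes whose symbols fall outside the rule, 5 were tested and 0 passed the test (edgeR, 0 at an unadjusted p under 0.05), compared with 0.574% of all genes, so that nothing can be read from this count. Rack1, a scaffold protein on the small subunit, had 1369 and 1250 normalized CPM in WT and 1179 and 582 in KO (log2 fold change -0.57 ± 0.53, SE, n = 2 per group; edgeR adjusted p = 0.670). Rps3a1 of the small subunit had 532 and 661 in WT and 1270 and 393 in KO, with 0.48 ± 0.61 (SE, n = 2 per group; edgeR adjusted p = 0.761). In Rack1 both KO libraries lay below both WT libraries, and in Rps3a1 they lay on both sides of them.

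The balance between subunits was examined as the ratio of summed counts on large-subunit to small-subunit genes. It was 1.175 and 1.196 in WT and 1.301 and 1.273 in KO, so that the groups did not overlap, at 1.19 ± 0.0147 and 1.29 ± 0.0193 (SD, n = 2 each). The log2 difference of KO minus WT was 0.12. Unlike the share, the ratio was thus alike in both KO libraries. Without Rpl4 and Rpl5, an alternative chosen after seeing the data, the ratio was 1.144 and 1.145 in WT and 1.192 and 1.205 in KO, so that the groups still did not overlap. The log2 difference was then 0.07, a smaller value that follows from leaving out the large-subunit genes with the largest fold changes above 0. When the median over genes of each subunit replaced the sums, the difference changed sign to -0.13, with ratios of 0.928 and 0.790 in WT and 0.784 in both KO libraries.

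By subunit, 10 of 31 small-subunit and 24 of 46 large-subunit members tested had log2 fold changes above 0, compared with 52.6% of all genes. Their medians were -0.15 and 0.02. These values depended on the KO library kept. Leaving out KO 1 gave 0 of 31 and 2 of 46, with medians of -0.93 and -0.79. Leaving out KO 2 gave 24 of 31 and 37 of 46, with medians of 0.37 and 0.49. The difference between subunits was not tested, since no test was made over members.

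The fold changes of the members went with the GC content of their transcripts. Across the 77 members tested, Pearson's r between GC content and the log2 fold change was -0.55 and Spearman's rho -0.53. Across 11355 genes tested with no library at 0, the values were -0.37 and -0.44. These are descriptions across genes, which are not independent replicates, all from the same 4 libraries. For KO 1 over the mean of WT alone, r was -0.55 in the members and -0.44 in those genes, and for WT 1 over WT 2 it was 0.42 and 0.24. The relation was loose: Rpl5, with a GC content of 42.7%, had a log2 fold change of 1.07, whereas Rps20, with 41.3%, had 0.07, and Rpl21, with 54.3%, had 0.63. Rps20 was named after its values were seen. After removal of each library's trend on GC content, the members' median log2 fold change was -0.00495 and 37 of 77 were above 0. Several of the fold changes given above were then smaller in size, 0.30 in place of 1.07 in Rpl5, 0.40 in place of 0.73 in Rpl17, -0.22 in place of -0.73 in Rplp1, -0.10 in place of -0.64 in Rpl8 and -0.93 in place of -1.48 in Rps4l. Others were larger, 0.99 in place of 0.63 in Rpl21 and 0.90 in place of 0.62 in Rps7, and Rpl4 had 0.87 in place of 1.09. The part of GC content in the differences was not tested beyond this.

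**Figure D5:**
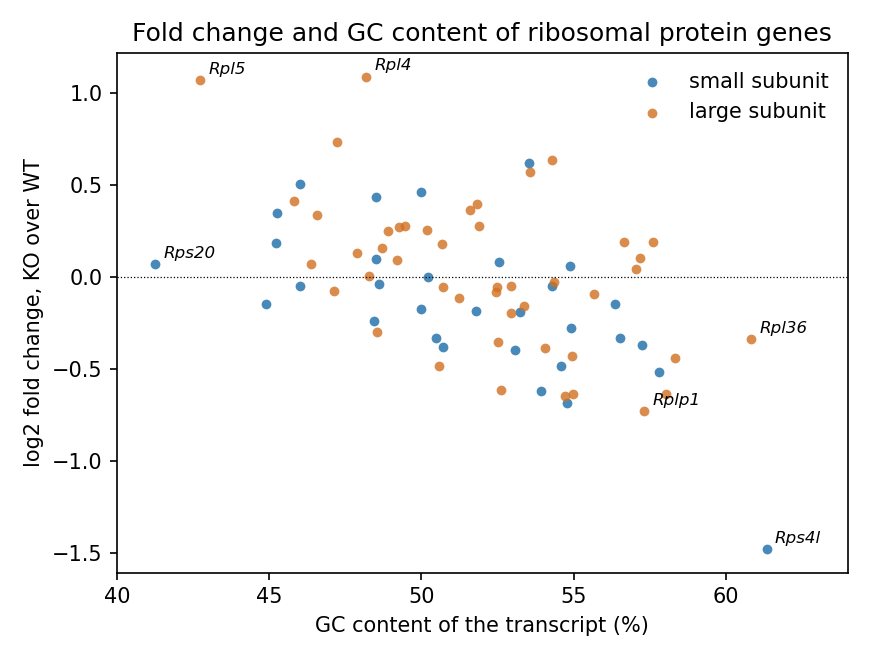
Log2 fold change, KO over WT, against the GC content (%) of the annotated transcript for the 77 members tested, colored by subunit. Points of higher GC content tend to lie lower, with r of -0.55, but scatter widely, as in Rps20, which has a GC content of 41.3% and lies near 0.

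Genes that act with ribosomal proteins were described by lists, in which no gene passed the test in either direction with all 4 libraries, the filter on low counts and group as the only term (edgeR, adjusted p under 0.05; 0.574% of all genes tested passed). With a replicate block added, Nop58 of the biogenesis list passed, higher in KO. Over all genes tested, 52.6% had log2 fold changes above 0 and 13.7% an unadjusted p under 0.05. Without KO 2, however, 6.91% of all genes passed, and 4 of 18 TOP genes (22.2%), 3 of 28 biogenesis genes (10.7%) and 4 of 9 snoRNA host genes (44.4%) did, all higher in KO 1. These were Hnrnpa1, Nap1l1, Npm1 and Pabpc1, then Dkc1, Ncl and Nop58, and then Gas5, Snhg1, Snhg5 and Snhg15, of which all but Ncl, Gas5 and Snhg15 were named after their values were seen. Without KO 1, 0 genes of these 3 lists passed (edgeR, adjusted p under 0.05), and 5 (27.8%), 6 (21.4%) and 1 (11.1%) of them had an unadjusted p under 0.05, compared with 0.862% and 16.3% of all genes in that fit. Of 18 translation factors and other TOP mRNAs, 11 had log2 fold changes above 0, with a median of 0.32, and 1 had an unadjusted p under 0.05. Leaving out KO 1 gave a median of -0.33 with 3 of 18 above 0, and leaving out KO 2 gave 0.75 with 14 of 18. Eef1a1, which brings aminoacyl-tRNA to the ribosome, had 1762 and 2169 normalized CPM in WT and 3617 and 1672 in KO, a log2 fold change of 0.43 ± 0.57 (SE, n = 2 per group; edgeR adjusted p = 0.778). Eef2, which moves the ribosome along the mRNA, had 1707 and 2045 in WT and 1624 and 1247 in KO, with -0.39 ± 0.51 (SE, n = 2 per group; edgeR adjusted p = 0.772). The list took 0.644% and 0.829% of gene counts in WT, 1.51% in KO 1 and 0.617% in KO 2.

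Of 28 ribosome biogenesis genes, 22 (78.6%) had log2 fold changes above 0, compared with 52.6% of all genes tested, with a median of 0.29, and 6 (21.4%) had an unadjusted p under 0.05, compared with 13.7%. Their share was 0.120% and 0.162% in WT and 0.278% and 0.200% in KO, and so lay above both WT libraries in KO 2, where the ribosomal protein genes lay below. Ncl, the nucleolar protein nucleolin, had 32.0 and 118 normalized CPM in WT and 494 and 123 in KO, with 2.04 ± 0.77 (SE, n = 2 per group; edgeR adjusted p = 0.294). It passed the test without KO 2 and with no filter on low counts, and its log2 fold change ranged from 0.71 to 3.23 with a library left out. Nhp2, a protein of H/ACA snoRNPs, had 154 and 155 in WT and 162 and 117 in KO, with -0.14 ± 0.42 (SE, n = 2 per group; edgeR adjusted p = 0.910).

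Among 13 regulators of ribosomal protein synthesis, 8 were above 0, with a median of 0.21, and 1 had an unadjusted p under 0.05. The direction turned without KO 2, at a median of -0.19 with 6 of 13 above 0. It held without KO 1, at 0.17 with 9 of 13. Eif4ebp1, which holds back cap-dependent translation until mTOR phosphorylates it, had 629 and 295 normalized CPM in WT and 137 and 223 in KO, with -1.36 ± 0.54 (SE, n = 2 per group; edgeR adjusted p = 0.310). Akt1, a kinase upstream of mTOR, had 197 and 247 in WT and 165 and 359 in KO, with 0.24 ± 0.50 (SE, n = 2 per group; edgeR adjusted p = 0.866). The groups overlapped in Akt1 but not in Eif4ebp1.

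Of 9 snoRNA host genes, noncoding TOP transcripts whose introns hold small nucleolar RNAs, 8 were above 0, with a median of 0.76, and 0 had an unadjusted p under 0.05. This median turned with the library left out, at -0.88 (1 of 9 above 0) without KO 1 and 1.48 (9 of 9) without KO 2. Gas5 had 27.2 and 33.0 normalized CPM in WT and 108 and 19.1 in KO, with 1.07 ± 0.70 (SE, n = 2 per group; edgeR adjusted p = 0.525). Snhg15 had 7.18 and 14.3 in WT and 47.1 and 14.2 in KO, with 1.51 ± 0.68 (SE, n = 2 per group; edgeR adjusted p = 0.370). In both genes KO 1 stood well above the other libraries, and KO 2 was the lowest library in Gas5 and level with WT 2 in Snhg15.

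Mitochondrial ribosomal proteins, which are encoded in the nucleus and make up the ribosome of mitochondria, served as a comparison family of similar size. Of 77 tested, 14 (18.2%) had log2 fold changes above 0. That share was 52.6% over all genes tested and 31.3% over those with at least 100 normalized CPM. The family's median was -0.26, and 2 (2.60%) had an unadjusted p under 0.05, compared with 13.7% of all genes. Leaving out KO 1 gave a median of -0.51 with 6 of 77 above 0, and leaving out KO 2 gave -0.13 with 31 of 77. Mrpl20 had 184 and 159 normalized CPM in WT and 155 and 110 in KO, with -0.37 ± 0.43, and Mrpl12 had 151 and 181 in WT and 135 and 130 in KO, with -0.33 ± 0.42 (SE, n = 2 per group; edgeR adjusted p = 0.740 and 0.763). The median log2 ratio of KO 1 to KO 2 was 0.31 in this family and 1.22 in the cytosolic one. Their share was 0.489% and 0.484% in WT and 0.571% and 0.399% in KO. In shares of counts, as in the cytosolic genes, KO 1 lay above and KO 2 below both WT libraries, at smaller distances, whereas in normalized CPM both KO libraries lay below both WT libraries in Mrpl20 and Mrpl12.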

How the data were processed

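Each library had 1 deposited table of raw counts by gene symbol, which the authors had not normalized. The submitters' processing notes name HISAT2 2.1.0, HTSeq 0.11.0 and mm10. The annotation, strand setting and trimming are not given in the sources used here. Summary lines that name no gene were left out; per library they held reads that did not align (30.3% of all reads in the table in KO 2, 41.2% to 44.2% in the others), had no feature (29.5% in KO 2, 22.3% to 24.4% in the others), were of low alignment quality (6.04% to 7.71%), had several alignments (4.16% to 4.60%) or were ambiguous (0.830% to 1.09%).

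Groups came from the titles. The test was edgeR 4.0.16 (R 4.3.3) with filterByExpr (minimum count 10, minimum total 15), TMM factors, and the two-sided quasi-likelihood F test (glmQLFit, glmQLFTest) with group as the only term, all 4 libraries and all 11837 genes in 1 fit. P-values were adjusted by Benjamini-Hochberg over all genes, with a threshold of 0.05 and a prior count of 0.125. The biological coefficient of variation was 42.5%. The SE is the absolute log2 fold change over the root of its F statistic. Shares and ratios have no test. Exact intervals (scipy 1.17.1) were at the 95% level. Positions, lengths, GC content and coding sequences came from GENCODE M21 (GRCm38, 1-based), with 1 representative transcript a gene. RefSeq start windows came from GRCm38.p6. Figures used matplotlib 3.10.9 and Python 3.11.15. The fitting script was tested on simulated data.

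Members, gene lists and tests were chosen with earlier results of these data known. Named genes were the 10 members with the highest mean normalized CPM, the 5 largest and 5 smallest fold changes, the 10 smallest adjusted p, the copies Rpl3l, Rpl10l, Rpl39l, Rps27l and Rps4l with their parents, the stalk genes and Rpsa, and for each other list up to 4 genes past the threshold or else the 2 highest by mean normalized CPM. Others are said to be named after their values were seen. Of the genes the rule names, 1 is not reported here. Alternatives were other scaling factors, filters, DESeq2 1.42.0, a replicate block, trends on length or GC content removed (lowess, span 0.3), thinned counts, a prior count of 2, a threshold of 0.1, other totals and member sets, and each library left out.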

Additional observations from a re-analysis of the deposited data

How the results depend on the processing

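The count of 0 members past the threshold was the same in every alternative but 1: without KO replicate 2 it was 3, and the range over libraries left out was 0 to 3. The members' median log2 fold change ranged from -0.84 to 0.46 with a library left out, that is without KO replicate 1 and without KO replicate 2. With library totals alone it was 0.32. Relative to the median of all genes it was -0.10 with TMM factors, -0.06 with library totals, -0.33 with no filter on low counts and -0.32 with DESeq2. With the length trend removed it was 0.17, and also 0.17 relative to all genes, so that this difference changed sign. The transcripts of the members tested had a median of 780 bases, against 2627 over all genes tested with annotation. The difference in share, KO minus WT, was 0.740 percentage points and ranged from -1.05 to 2.53 with a library left out, and so changed sign without KO 1. It was 0.331 without the 50 most abundant other genes in the total. For the members with no -ps row, which hold a smaller share, it was 0.0627. The log2 difference in subunit balance was 0.15 without the stalk genes, -0.13 by medians over genes and 0.066 without Rpl4 and Rpl5, the last added after seeing the data and smaller by construction; with a library left out it ranged from 0.10 to 0.13. The cause of the other changes was not tested.

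Libraries with equal numbers in the labels had deviations from the group means that correlated at -0.18 across genes. This gave no sign of a pairing by number, but with 2 libraries a group it cannot exclude one. With a replicate block 215 genes passed the threshold over all genes, compared with 68, and 0 members, with a members' median of -0.19. With a crossed block, added after seeing the data, 647 genes passed and 0 members. With no filter on low counts 583 genes passed, with DESeq2 378, with the GC trend removed 175, with the length trend removed and the block 302, with library totals alone 136 and at a threshold of 0.1 181, in each case with 0 members. Of the other lists, Npm1, Dkc1, Ncl and Nop58 passed with no filter (edgeR, Ncl at an adjusted p of 0.0138) and with the crossed block, Npm1 and Nop58 with DESeq2, Nop58 with the block, alone or with the length trend removed, and Dkc1 and Nop58 without WT 2. Without KO 2, Rpl22l1 and the copies Rpl9-ps6 and Rps7-ps3 also passed, besides the list genes given in the report. All were higher in KO.

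Directions of named genes that turned were all of fold changes not past the threshold. With the block, the log2 fold change was -0.071 in Rpl13, -0.14 in Rps4x and -0.00895 in Rpl3-ps1. With library totals alone it was 0.16 in Rplp0, 0.025 in Rps2, 0.22 in Rps27l, 0.12 in Rps3, 0.22 in Rpsa, 0.20 in Nhp2 and 0.000117 in Mrpl12. With the GC trend removed it was -0.00495 in Rpl39, 0.11 in Rps19, 0.10 in Rps2, -0.092 in Rps4x, 0.32 in Rpsa, 0.039 in Eef2, 0.14 in Nhp2 and 0.038 in Mrpl12. With the length trend removed it was 0.15 in Rps27l and 0.11 in Nhp2, and with the block as well 0.15 and 0.11. With a library left out, the range was -0.66 to 0.51 in Rpl13, -0.44 to 1.37 in Rpl17, -0.76 to 1.33 in Rpl21, -0.59 to 0.64 in Rpl39, -0.30 to 1.76 in Rpl5, -0.46 to 0.032 in Rplp0, -1.07 to 0.079 in Rps27, -0.62 to 0.20 in Rps27l, -0.61 to 0.053 in Rps3, -0.98 to 0.70 in Rps4x, -0.46 to 1.23 in Rps7, -0.97 to 0.37 in Rpsa, -0.23 to 0.88 in Eef1a1, -0.40 to 0.072 in Nhp2, -0.43 to 0.69 in Akt1, -0.66 to 1.84 in Gas5, -0.60 to 1.09 in Rps3a1, -0.38 to 0.75 in Rpl14-ps1 and -0.65 to 0.63 in Rpl3-ps1. With a library left out, the count over all genes was 117 and 241 without WT 1 and WT 2, and 102 and 818 without KO 1 and KO 2. Of the members tested, 75 of 77 had at least 100 counts in every library.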
